A study of Mus musculus with 8 samples.

Results

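Argonaute and microRNA processing genes were followed through an RNA precipitation with a tagged form of the germ cell protein Dazl, which binds RNA. The set holds 8 genes, chosen by name: the Argonautes Eif2c1, Eif2c2, Eif2c3 and Eif2c4, which RefSeq names Ago1 to Ago4, and Dgcr8, Xpo5, Dicer1 and Tarbp2. All array probes carrying these gene names were taken, 26 of 41174 probes, and the 8 names are among 27962 gene names on the array. RNA came from testes of male mice of C57BL/6 129SV mixed strain at P14, labelled as juvenile germ cells that express Dazl fused to GFP and V5, and all 4 groups of 2 arrays share that fusion. The groups are RNA precipitated with an antibody against V5, RNA precipitated with an antibody against GFP, a mock precipitate with normal mouse IgG, and input total RNA. No crosslinking was used, and the labels give neither the promoter that drives the fusion nor whether the arrays of a group come from separate animals. The p-values therefore rest on a spread between arrays that may be purely technical.

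MicroRNAs are cut from long transcripts by the nuclear Microprocessor, in which Dgcr8 is the RNA-binding partner of the nuclease Drosha. Xpo5 carries the resulting hairpins to the cytoplasm, where Dicer1, with its double-stranded RNA-binding partner Tarbp2, cuts them to mature length. An Argonaute protein then holds the mature strand and, with proteins of the GW182 family, represses matching mRNAs; Ago2 is the Argonaute best known for slicing a target. The arrays measured the mRNAs that encode these proteins, not the proteins and not microRNAs.

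Of the 26 probes, 20 had at least 1 group in which both arrays were well above background and were tested. These cover all 8 genes: 5 probes for Eif2c4, 4 for Eif2c3, 3 for Eif2c2, 2 each for Eif2c1, Xpo5 and Dicer1, and 1 each for Dgcr8 and Tarbp2. The 6 probes left out were 1 of Eif2c1, which was above background on 1 array, and 1 of Eif2c3, 2 of Dgcr8 and 2 of Xpo5, which were above background on none. For each gene the brightest kept probe gave the gene's value, and levels below are multiples of the array's 75th percentile of signal, which can be compared between arrays but not between probes. The brightest probes of Eif2c1 to Eif2c4 and of Xpo5 were assigned by the array's gene name, as none of them matched a RefSeq transcript. Whether a probe also binds the transcript of a related Argonaute was not tested. Per RefSeq, Ago3, Ago1 and Ago4 are neighbours on chromosome 4, with 0 genes between them.

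Across the 8 arrays 57.2% to 62.2% of spots were well above background, 0 were saturated, and the 75th percentile of the signal was 857.0 to 1114.9. The series text names PABP1 where the samples name GFP as the antigen of the second antibody. One V5 array (replicate 1) is described as total RNA and one input array (replicate 2) as RNA-IP, against their titles, which were followed. V5 and GFP arrays share a slide, and IgG and input arrays share another, so slide and group cannot be told apart for V5 or GFP against IgG or input. Dazl's own transcript, at 7.16 and 6.53 in V5 and 10.4 and 9.11 in GFP precipitates, against 4.02 and 2.99 in IgG and 14.2 and 15.0 in input, was higher with both antibodies than with IgG (log2 fold changes 0.98 ± 0.15 and 1.49 ± 0.15 (SE), limma adjusted p = 0.00405 and 0.000369). It was lower than input in all 3 precipitates (-1.10 with V5, -0.58 with GFP and -2.08 with IgG). All 9 germ cell markers, and every measured marker of Sertoli and Leydig cells, peritubular myoid cells, endothelium, leukocytes and red cells, were above background on both input arrays. In such bulk RNA fewer cells of a type and less RNA per cell cannot be told apart.

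Against the IgG mock, which asks what came down with the tagged protein beyond unspecific binding, Eif2c3 and Eif2c4 were higher with both antibodies, and Tarbp2 and Xpo5 were lower, although Xpo5 changed sign under spike-in scaling. With GFP, Dgcr8 was also higher and Dicer1 lower, and Dicer1 turned positive under spike-in scaling. Eif2c1 and Eif2c2 did not pass the test with either. Thus 2 of 8 genes were higher and 2 lower with V5, where 16.7% and 40.3% of all 17593 tested genes were called in those directions (57% either way). With GFP 3 were higher and 3 lower, beside 21.6% and 52.1% of all genes (73.7% either way), and both comparisons share the IgG arrays. The share called either way, 4 and 6 of 8 genes, was near these backgrounds and is no result about the 8 genes. The median of all genes itself lay at -0.21 for V5 and -0.33 for GFP on the log2 scale, and 5 and 6 of the 8 genes lay above it; the median of the 8 was -0.09 and -0.07. When arrays were scaled to spike-in controls instead, the median of all genes was 0.16 for V5 and 0.15 for GFP. Then 4 of the 8 genes were called higher and 0 lower with each antibody, beside 40.8% and 51.5% of all genes called either way. Fold changes below are therefore also given relative to the median of all genes.

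**Figure D1:**
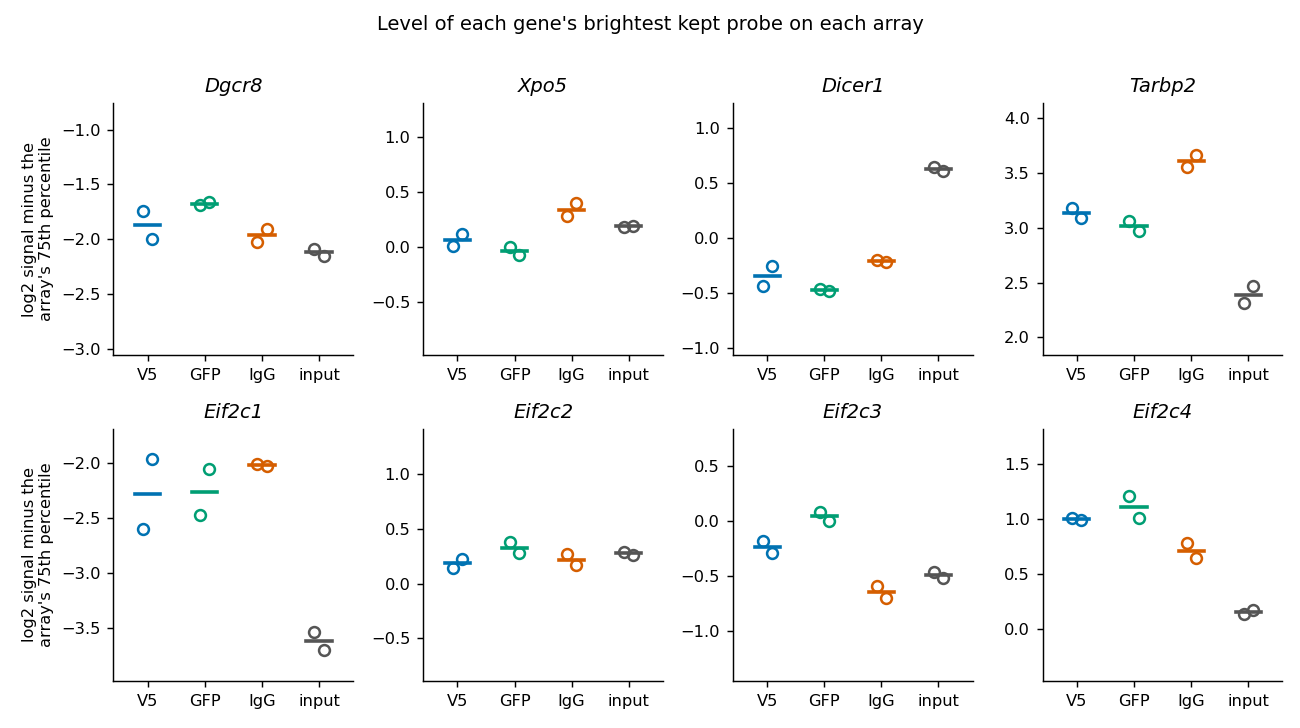
Levels of the 8 genes on all 8 arrays, 1 panel a gene, as log2 signal minus the array's 75th percentile (y axis, each spanning the same range of log2 units) by group (x axis). Circles are arrays and bars are means of 2 arrays. Dicer1 is lower and Eif2c1 and Tarbp2 are higher in all 3 kinds of precipitate than in input, and the Eif2c3 circles are lowest in IgG.

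Eif2c3, which encodes Argonaute 3 of the microRNA-binding family, stood at 0.878 and 0.818 with V5 and 1.06 and 0.999 with GFP, against 0.664 and 0.615 with IgG (probe A_52_P126513). Each V5 and GFP array was above both IgG arrays. The log2 fold change over IgG was 0.41 ± 0.077 with V5 (1.33-fold, limma adjusted p = 0.00704) and 0.69 ± 0.077 with GFP (1.61-fold, adjusted p = 0.000493). Relative to the median of all genes these are 0.61 and 1.01, and 86.7% and 87.8% of all genes had a smaller fold change. The call with V5 was lost in 2 of 14 alternatives. With normexp background correction it was 0.34 (limma adjusted p = 0.185), a setting in which 0% of all genes were called for V5 against IgG. The omission of V5 replicate 1 and input replicate 2 together gave 0.36.

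Over all 20 kept probes, 6 were higher and 4 lower than IgG with V5 (17.8% and 35.6% of all kept probes), 1 of the 6 with neither group above background, and 9 were higher and 5 lower with GFP (23.6% and 46.8%). The other 3 kept probes of Eif2c3 were also called higher than IgG with GFP, and so were the 2 of them that the V5 arrays measured with V5. All 3 were dim and not well above background on either IgG array. One of them, A_52_P126521, was at 0.0532 and 0.0462 with V5 and 0.07 and 0.0582 with GFP, against 0.0252 and 0.0287 with IgG. Set against the lowest measurable signal on the IgG arrays, its fold was at least 1.72 with V5 and at least 2.22 with GFP. The bounds were not tested. The limma test was on the plain estimates, 1.84-fold with V5 (adjusted p = 0.00357) and 2.37-fold with GFP (adjusted p = 0.000404). These use IgG signals not well above background. A_52_P556266 was at least 1.44-fold higher with V5 and at least 1.85-fold higher with GFP. A_51_P113068 was at least 1.80-fold higher with GFP, while neither the V5 nor the IgG arrays measured it above background, so its call with V5 compares unmeasured groups and no fold is given.

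Eif2c4 stood at 2.02 and 1.99 with V5 and 2.31 and 2.02 with GFP, against 1.72 and 1.57 with IgG (probe A_52_P27117). Each V5 and GFP array was above both IgG arrays, while V5 and GFP overlapped. Its log2 fold change was 0.29 ± 0.089 with V5 (limma adjusted p = 0.0312) and 0.40 ± 0.089 with GFP (adjusted p = 0.00657). The call with V5 was lost without V5 replicate 1 (0.28, adjusted p = 0.113), without V5 replicate 2 (0.30, 0.0952) and without IgG replicate 2 (0.22, 0.116), and was kept in 6 of 14 alternatives.

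The 5 kept probes of Eif2c4 did not move together. With GFP, 3 probes were called higher than IgG, 1 was called lower, and 1 did not pass. The lower one, A_52_P525027, read 0.114 and 0.0743 with V5 and 0.0775 and 0.0741 with GFP, against 0.169 and 0.204 with IgG. Its log2 fold changes were -1.02 ± 0.21 (adjusted p = 0.00926) and -1.30 ± 0.21 (adjusted p = 0.00178), opposite to the brightest probe. It was above background on both arrays of each of these groups. When all kept probes of a gene were averaged, Eif2c4 against IgG was -0.09 with V5 (adjusted p = 0.31) and 0.08 with GFP (adjusted p = 0.308), and neither was called.

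Eif2c1 was not separated from IgG by its brightest probe, A_52_P97489. It read 0.165 and 0.257 with V5 and 0.18 and 0.241 with GFP, against 0.249 and 0.246 with IgG, so the V5 arrays fell on both sides of the IgG arrays. The log2 fold changes were -0.27 ± 0.23 (limma adjusted p = 0.339) and -0.25 ± 0.23 (adjusted p = 0.347). Its second kept probe, A_52_P76402, was higher with GFP than with IgG (0.29 ± 0.087, adjusted p = 0.0225) and not called with V5 (-0.07 ± 0.087).

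Eif2c2, which encodes the slicing Argonaute, had the smallest span of group means of the 8 genes, 0.14 log2 units. It read 1.11 and 1.17 with V5 and 1.3 and 1.21 with GFP, against 1.2 and 1.12 with IgG and 1.22 and 1.2 in input. The V5 and IgG arrays overlapped. The log2 fold change over IgG was -0.03 ± 0.074 with V5 and 0.11 ± 0.074 with GFP, and none of the 6 comparisons passed the test for this probe. Since all genes as a body were lower against IgG, Eif2c2 lay 0.17 and 0.43 above the median of all genes. With spike-in scaling it was called higher than IgG with V5 (0.33, adjusted p = 0.0275) and GFP (0.58, adjusted p = 0.00209). In that scaling it was also called lower than input with V5 (-0.51), GFP (-0.27) and IgG (-0.85), and V5 against GFP alone was not called. Of its other 2 probes, 1 was called once, lower with V5 than in input (-0.34 ± 0.11, adjusted p = 0.0273).

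**Figure D2:**
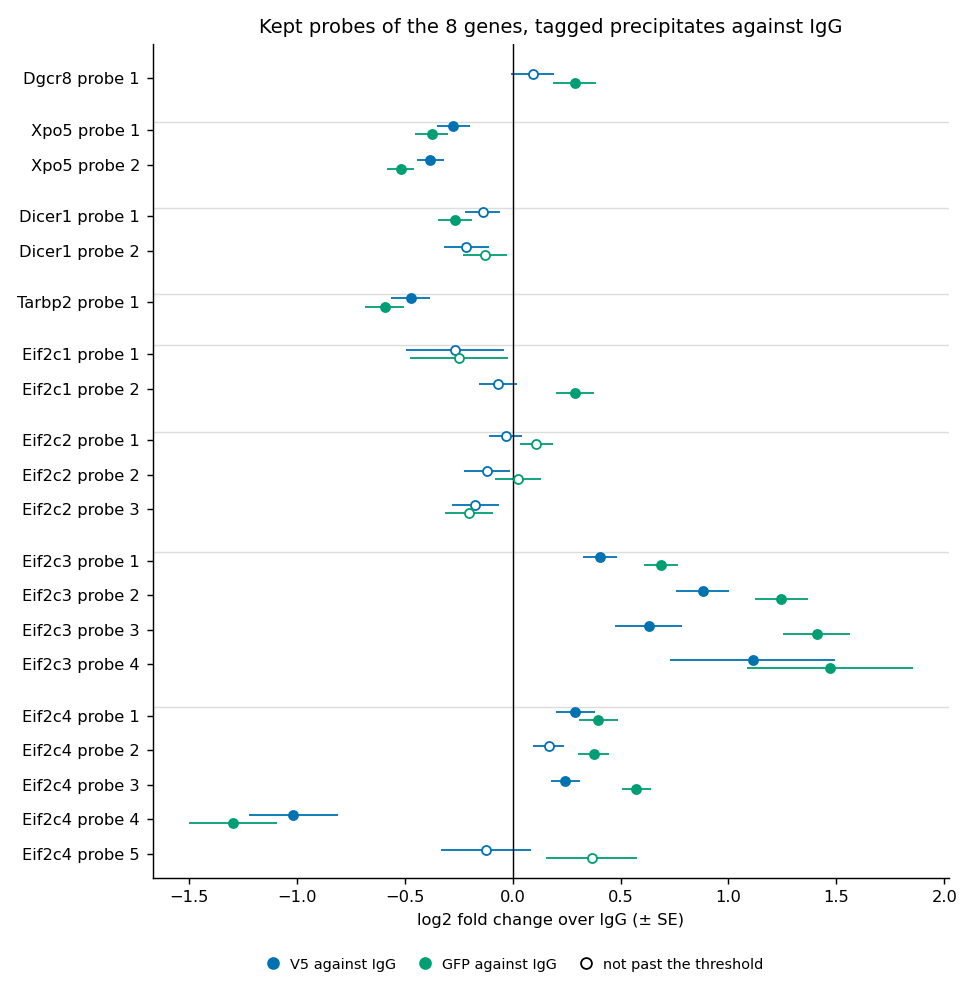
Log2 fold changes ± SE over IgG (x axis) for the 20 kept probes, grouped by gene and numbered from brightest to dimmest (y axis); blue is V5 and green is GFP, and open circles missed the limma threshold. All 4 Eif2c3 probes lie right of 0, and 1 Eif2c4 probe lies far left of the others.

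Among the processing genes, Dgcr8 was at 0.298 and 0.25 with V5 and 0.31 and 0.315 with GFP, against 0.246 and 0.266 with IgG. The V5 arrays overlapped the IgG arrays and the GFP arrays did not. Its log2 fold change was 0.09 ± 0.098 with V5 (limma adjusted p = 0.438) and 0.29 ± 0.098 with GFP (adjusted p = 0.0344). With spike-in scaling both passed, at 0.46 with V5 (adjusted p = 0.00828) and 0.76 with GFP (adjusted p = 0.000612). The call with GFP was lost when IgG replicate 1, GFP replicate 1 or GFP replicate 2 was left out, at 0.23, 0.30 and 0.28.

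Xpo5, the exporter, was at 1.01 and 1.09 with V5 and 1.0 and 0.951 with GFP, against 1.22 and 1.32 with IgG. All V5 and GFP arrays were below both IgG arrays. The log2 fold changes were -0.27 ± 0.075 (limma adjusted p = 0.0218) and -0.38 ± 0.075 (adjusted p = 0.00419), and its second kept probe was called lower as well (-0.38 and -0.52). Relative to the median of all genes the brightest probe was at -0.07 and -0.05, and with spike-in scaling it was 0.09 and 0.10 and not called. The call with V5 was also lost without V5 replicate 1 (-0.22, adjusted p = 0.113) or IgG replicate 2 (-0.22, adjusted p = 0.0725), and was kept in 7 of 14 alternatives.

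Dicer1, the cytoplasmic nuclease, was at 0.737 and 0.84 with V5 and 0.724 and 0.714 with GFP, against 0.872 and 0.86 with IgG. Each V5 and GFP array was below the IgG arrays. The log2 fold change was -0.14 ± 0.079 with V5 (limma adjusted p = 0.177) and -0.27 ± 0.079 with GFP (adjusted p = 0.0208). Relative to the median of all genes these were 0.07 and 0.06, and with spike-in scaling 0.23 and 0.20, not called. Its second probe was not called against IgG, and the call with GFP was lost without IgG replicate 1 (-0.26), GFP replicate 1 (-0.28) or GFP replicate 2 (-0.26).

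Tarbp2, which encodes Dicer1's partner, was at 9.07 and 8.53 with V5 and 8.36 and 7.83 with GFP, against 11.7 and 12.7 with IgG. The groups did not overlap. It was lower by 0.47 ± 0.087 with V5 (log2 fold change -0.47, limma adjusted p = 0.00649) and by 0.59 ± 0.087 with GFP (log2 fold change -0.59, adjusted p = 0.00117). It lay at -0.27 relative to the median of all genes in both, and 18.9% and 27.3% of all genes had a smaller fold change. With spike-in scaling it was not called against IgG with either antibody. Markers of the somatic cell types were lower than IgG too, beside 40.3% and 52.1% of all genes. For the supporting Sertoli cells 10 of 11 were lower with V5 and 11 of 11 with GFP, and of 25 markers of Leydig and myoid cells, leukocytes, endothelium and red cells 21 were lower with V5 and 23 with GFP. The summed level of the Sertoli markers was 351.0 to 371.0 in V5 and 292.0 to 308.0 in GFP, against 463.0 to 486.0 in IgG, with all 11 above background in input. Of 9 germ cell markers, 6 were higher and 1 lower with V5, and 7 were higher and 1 lower with GFP. Their summed level, 273.0 to 284.0 in V5 and 278.0 to 289.0 in GFP, lay within the 267.0 to 307.0 of the IgG arrays. A large part of each sum was the single marker Tex101, which went against most of the others. Tex101 was at 148.0 and 162.0 in V5, 136.0 and 138.0 in GFP and 221.0 and 187.0 in IgG. The sum therefore does not show the level of the other germ cell markers. With spike-in scaling 1 Sertoli marker was lower and 1 higher with V5, and 4 were lower with GFP. Of the 25 other somatic markers 0 were then lower with V5, and 8 were lower and 1 higher with GFP. In the same scaling 8 germ cell markers were higher with each antibody. Of all genes 40.8% with V5 and 51.5% with GFP were then called either way. The part of any marker group in the values of the 8 genes was not tested.

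Against input, the question is which transcripts each precipitate holds in excess of the starting RNA, and the IgG mock shows what comes down from the same material without an antibody against a tag. Dicer1 was lower than input, and Eif2c1, Eif2c4 and Tarbp2 were higher, in all 3 kinds of precipitate, the mock included, except that Eif2c4 in the mock turned negative under spike-in scaling. Eif2c3 was higher than input with V5 and GFP and not called with IgG, but with spike-in scaling it was not called with V5 or GFP and was lower with IgG. With V5, 4 genes were higher and 1 lower (37.7% and 35.5% of all genes, 73.2% either way). With GFP, 5 were higher and 2 lower (36.2% and 39.1%, 75.2% either way). With IgG, 3 were higher and 1 lower (43.9% and 29.3%, 73.2% either way). The 3 comparisons share the input arrays, and read against these backgrounds the counts are no result about the 8 genes. With spike-in scaling the numbers were 3 higher and 3 lower with V5, 3 and 3 with GFP, and 2 and 5 with IgG. Of all genes 74.8%, 76.1% and 75.8% were then called either way. With IgG the median of all genes was -0.57 in that scaling, against 0.22 with the percentile scaling.

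Dicer1 had input levels of 1.57 and 1.52, above every precipitate array listed before. Its log2 fold change over input was -0.98 ± 0.079 with V5 (1.97-fold lower, limma adjusted p = 7.17e-05), -1.11 ± 0.079 with GFP (2.15-fold lower, adjusted p = 3.67e-05) and -0.84 ± 0.079 with IgG (1.79-fold lower, adjusted p = 0.000109). The second probe, A_51_P483059, was at 0.522 and 0.609 with V5, 0.608 and 0.59 with GFP and 0.658 and 0.651 with IgG, against 1.85 and 1.61 in input. Its log2 fold changes were -1.62, -1.53 and -1.40, each with an SE of 0.10. Both probes thus gave the same direction, and the brightest probe kept its call under all 14 alternatives in each of the 3 comparisons.

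Tarbp2 showed the opposite direction, with input levels of 4.96 and 5.53. Its log2 fold change over input was 0.75 ± 0.087 with V5 (adjusted p = 0.000322), 0.63 ± 0.087 with GFP (adjusted p = 0.000669) and 1.22 ± 0.087 with IgG (2.33-fold, adjusted p = 3.42e-05). It was highest in the mock, and the mock's call held in all 14 alternatives. The calls with V5 and GFP were lost with normexp background correction, at 0.55 (limma adjusted p = 0.086) and 0.49 (adjusted p = 0.112). With spike-in scaling the values were smaller, 0.32 with V5, 0.31 with GFP and 0.43 with IgG.

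Eif2c1 stood at 0.0859 and 0.0767 in input, below every precipitate array. Over input it was higher by 1.34 ± 0.23 on the log2 scale with V5 (2.54-fold, adjusted p = 0.00175), by 1.36 ± 0.23 with GFP (2.57-fold, adjusted p = 0.00155) and by 1.61 ± 0.23 with IgG (3.05-fold, adjusted p = 0.000672). Its second probe gave 0.74, 1.10 and 0.81, all called. In the mock 97.3% of all genes had a smaller fold change than the brightest probe. All 3 calls of the gene were lost with normexp background correction (limma adjusted p = 0.0954 with V5, 0.103 with GFP and 0.062 with IgG). Of 3 Eif2c1 probes only A_52_P313035, left out as dim, matched a RefSeq transcript. That probe read 0.0322 and 0.0213 in input, against 0.011 and 0.0195 with V5, 0.0204 and 0.0148 with GFP and 0.0212 and 0.0204 with IgG. It was above background on 1 input array alone and was not tested.

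Eif2c4 had input levels of 1.1 and 1.12, below all precipitate arrays. Its log2 fold change was 0.85 ± 0.089 with V5 (adjusted p = 0.000201), 0.96 ± 0.089 with GFP (adjusted p = 0.000104) and 0.56 ± 0.089 with IgG (adjusted p = 0.00123). With spike-in scaling the IgG value was -0.23 and not called. Its discordant probe A_52_P525027 was again opposite, at -0.66 with V5 and -0.94 with GFP, both called lower.

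For Eif2c3 the probes disagreed over input. The brightest was at 0.724 and 0.699 in input, and its log2 fold change was 0.25 ± 0.077 with V5 (limma adjusted p = 0.0232), 0.53 ± 0.077 with GFP (adjusted p = 0.000824) and -0.16 ± 0.077 with IgG (adjusted p = 0.111). Of the dim probes, 2 were called lower with V5 than in input, A_52_P126521 at -0.50 and A_51_P113068 by 2.36-fold. The latter was not well above background with V5, and its fold is the plain estimate, not a lower bound. In IgG both were lower than input, at least 2.44-fold and at least 2.48-fold. With GFP A_51_P113068, the Eif2c3 probe that matched RefSeq, was also called lower than input (-0.46 ± 0.16, limma adjusted p = 0.0336). There A_52_P126521 (-0.14) and A_52_P556266 (0.57) were not called. The brightest probe's call with V5 was lost without input replicate 1 (0.28), input replicate 2 (0.23) or V5 replicate 1 (0.20), was -0.17 with spike-in scaling and was -0.32 for the mean of kept probes. In these last 2 settings the GFP value was 0.21 (adjusted p = 0.0631) and 0.13 (adjusted p = 0.395), and IgG was called lower at -0.94 (adjusted p = 8.48e-05) and -1.08 (adjusted p = 0.000327).

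Dgcr8 was at 0.235 and 0.225 in input. Its log2 fold change was 0.25 ± 0.098 with V5 (adjusted p = 0.058), 0.44 ± 0.098 with GFP (adjusted p = 0.00597) and 0.15 ± 0.098 with IgG (adjusted p = 0.199). Without V5 replicate 2 the V5 value was 0.37 and passed (adjusted p = 0.0165). Xpo5 was at 1.13 and 1.14 in input. It was called lower with GFP (-0.22 ± 0.075, adjusted p = 0.0332), a call lost when any 1 of the 4 GFP and input arrays was left out, and was not called with V5 (-0.12) or IgG (0.15). The second Xpo5 probe was called lower than input with V5 (-0.52 ± 0.064) and GFP (-0.66 ± 0.064) but not with IgG (-0.14 ± 0.064).

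**Figure D3:**
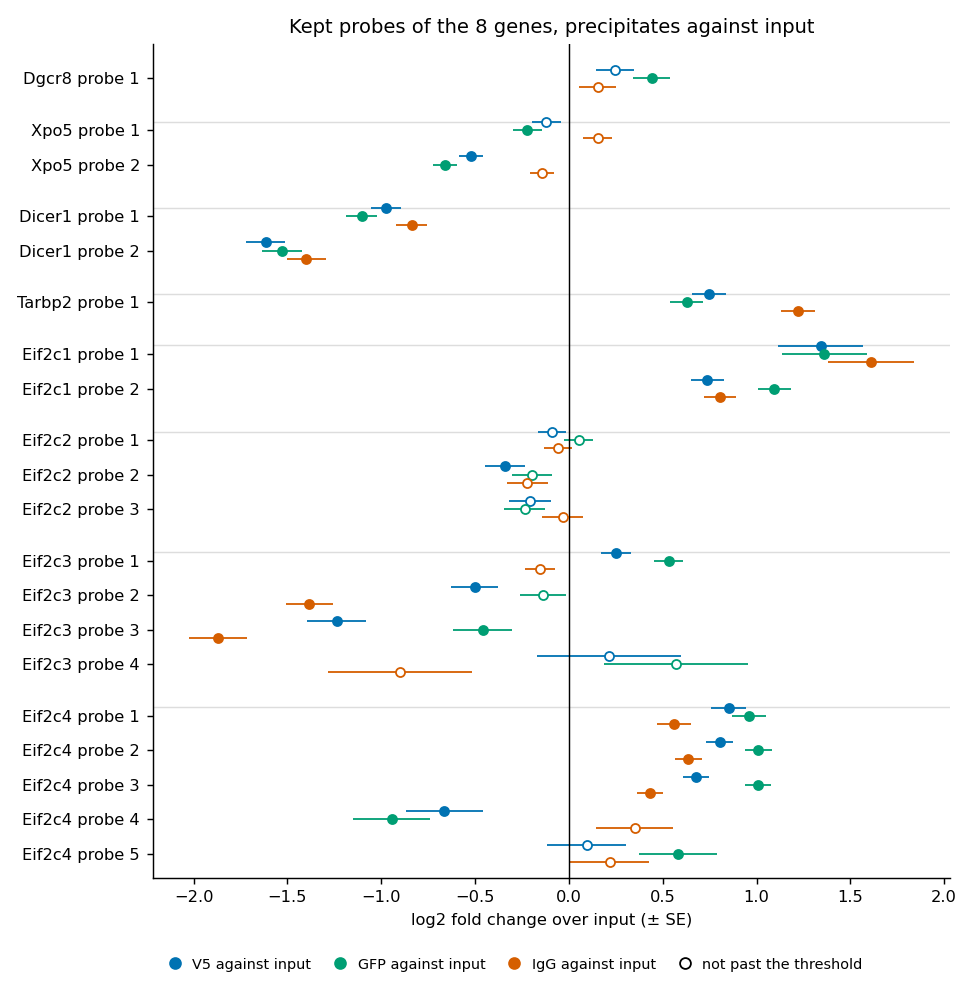
Log2 fold changes ± SE over input (x axis) for the 20 kept probes, grouped by gene and numbered from brightest to dimmest (y axis); blue is V5, green is GFP and orange is IgG, and open circles missed the limma threshold. Both Dicer1 probes lie left of 0 and both Eif2c1 probes and the Tarbp2 probe lie right of 0 in all 3 precipitates.

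The V5 and GFP antibodies bind tags of the same fusion protein, and V5 against GFP compares them within a slide. Of the 8 genes, 0 passed limma's adjusted threshold, where 13.9% of all genes did, and 1, Eif2c3, had an unadjusted p under 0.05. The log2 fold change of Eif2c3 was -0.28 ± 0.077 (adjusted p = 0.0575), and both V5 arrays were below both GFP arrays. At the level of probes 3 of 20 were called, all lower with V5, where 11.5% of all probes were called and 6.77% were lower. These were A_52_P76402 of Eif2c1 (-0.36 ± 0.087, adjusted p = 0.0492), A_51_P113068 of Eif2c3 (1.72-fold, adjusted p = 0.0375, not well above background with V5) and A_52_P8444 of Eif2c4 (-0.33 ± 0.068, adjusted p = 0.039). The last read 0.483 and 0.471 with V5, against 0.59 and 0.61 with GFP.

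Beside the 8 genes, 46 other genes of microRNA biogenesis and silencing were listed, and 40 were measured. With V5, 15 were higher and 7 lower than IgG (37.5% and 17.5%, beside 16.7% and 40.3% of all genes), with a median log2 fold change of -0.03, against -0.21 for all genes. With GFP, 17 were higher and 10 lower (42.5% and 25%, beside 21.6% and 52.1%), with a median of -0.02, against -0.33 for all genes. Relative to input the list had 20 higher and 14 lower with V5 (50% and 35%, beside 37.7% and 35.5% of all genes), 20 and 12 with GFP (50% and 30%, beside 36.2% and 39.1%), and 14 and 16 with IgG (35% and 40%, beside 43.9% and 29.3%). Between V5 and GFP 7 were called either way (17.5%), all of them lower with V5, where 13.9% of all genes were called either way. The share of all genes called lower was not counted. Over all kept probes 11.5% were called either way and 6.77% were lower. With spike-in scaling the counts against IgG were 22 higher and 1 lower with V5 and 26 and 1 with GFP. In that scaling 40.8% and 51.5% of all genes were called either way, and their medians moved to 0.16 and 0.15. Against input the counts were 6 and 19 with V5, 14 and 17 with GFP and 2 and 29 with IgG. There 74.8%, 76.1% and 75.8% of all genes were called either way, with medians of -0.42, -0.38 and -0.57. Shares of all genes by direction were not counted in that scaling.

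The genes with the smallest p against IgG were the same 4 with both antibodies. Lin28 and Lin28b encode RNA-binding proteins that block maturation of the let-7 microRNAs. Lin28 was at 1.62 and 1.48 with V5 and 2.53 and 2.45 with GFP, against 0.757 and 0.695 with IgG. Its log2 fold changes were 1.10 ± 0.078 (limma adjusted p = 0.000774) and 1.78 ± 0.078 (adjusted p = 7.45e-05). Lin28b was at 1.12 and 1.08 with V5 and 1.47 and 1.4 with GFP, against 0.507 and 0.523 with IgG, and no precipitate overlapped IgG in either gene. Tsnax encodes translin-associated factor X, of the complex that clears passenger strands in flies, and had log2 fold changes of 0.92 ± 0.081 and 1.39 ± 0.081. Cnot6l, a deadenylase of the CCR4-NOT complex, had 0.84 ± 0.073 and 1.23 ± 0.073. In V5 against GFP these 4 were also the listed genes with the smallest p, and all were lower with V5 (Lin28 -0.68, Tsnax -0.47, Cnot6l -0.40, Lin28b -0.38).

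Rnasen, the array's name for Drosha, was lower than IgG with both antibodies (-0.27 ± 0.073 and -0.41 ± 0.073), which became 0.10 and 0.07 under spike-in scaling, and lower than input in all 3 precipitates, at -0.75 with V5, -0.89 with GFP and -0.48 with IgG. Prkra, another double-stranded RNA-binding partner of Dicer1, was not called with V5 (-0.16 ± 0.089) and was lower with GFP (-0.43 ± 0.089) than with IgG, and these became 0.21 and 0.05 under spike-in scaling. Against input Prkra was lower in every precipitate, at -1.36 with V5, -1.62 with GFP and -1.20 with IgG. Prkra and Dicer1 were thus both lower than input everywhere, and Tarbp2 was higher everywhere.

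The GW182 family, which links Argonautes to deadenylation, was split. Tnrc6a was at 2.64 and 2.64 with V5 and 3.24 and 3.34 with GFP, against 1.87 and 1.9 with IgG, and was higher with both (0.48 ± 0.061 and 0.80 ± 0.061). Tnrc6c was higher with both as well (0.26 ± 0.091, adjusted p = 0.0487, and 0.40 ± 0.091). Tnrc6b was not called (-0.13 ± 0.085 and -0.07 ± 0.085), but under spike-in scaling it was 0.23 and 0.40, the second called (adjusted p = 0.013). Over input, Lin28 had the smallest p of the listed genes with V5 (1.84, adjusted p = 1.14e-05) and GFP (2.53, adjusted p = 4.93e-06). It was also higher with IgG (0.75), which became -0.04 under spike-in scaling. Lin28b was higher than input with V5 (1.03) and GFP (1.41) and not called with IgG (-0.07). Of the others with the smallest p over input, the chaperone gene Hsp90aa1 was lower with V5 (-1.91), GFP (-1.92) and IgG (-2.26), the exonuclease gene Xrn2 was lower (-1.19, -1.21 and -1.14), and the decapping gene Dcp2 was higher (1.30, 1.20 and 1.49).

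Piwi genes, the germ cell clade of the Argonaute family, are given for comparison. Piwil4 was higher than IgG with V5 (0.51 ± 0.073, limma adjusted p = 0.00338) and GFP (0.74 ± 0.073, adjusted p = 0.00035). Piwil2 (0.20 ± 0.092 and 0.40 ± 0.092) and Piwil1 (0.06 ± 0.069 and 0.19 ± 0.069) passed with GFP and missed the threshold with V5. No difference between the Piwi genes and the Argonautes was tested.

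**Figure D4:**
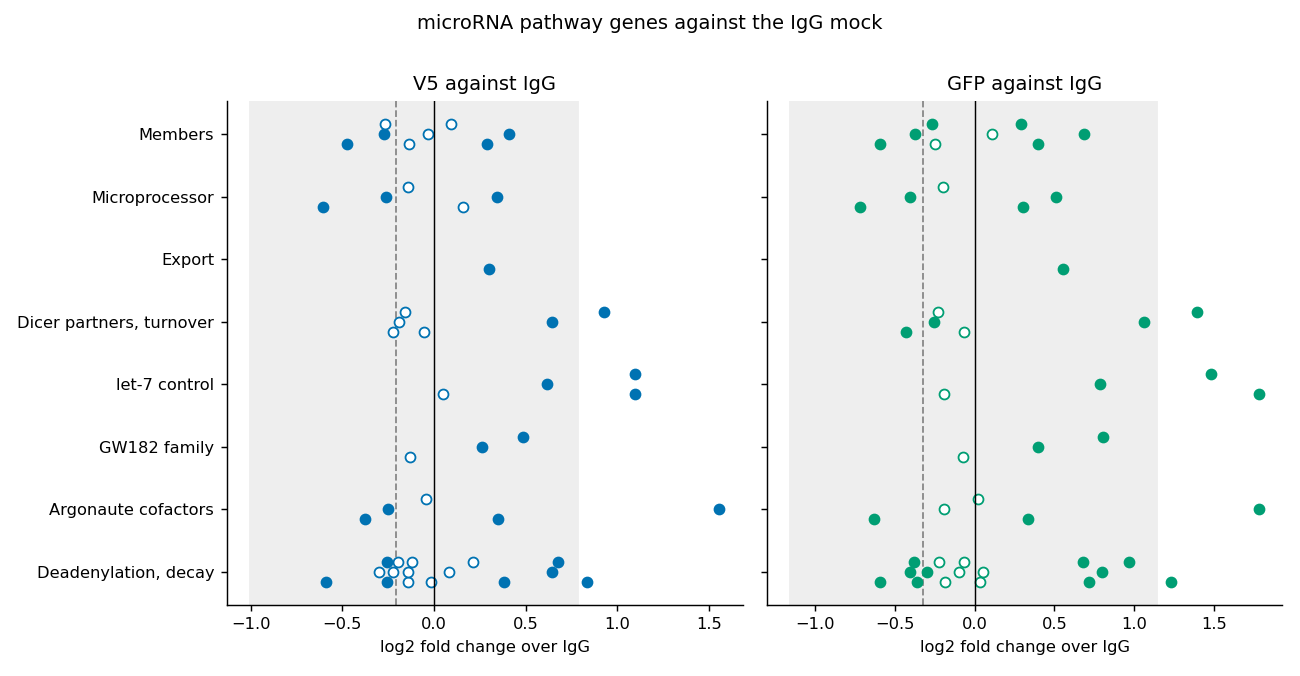
Log2 fold changes over IgG (x axis) for the 8 genes and the 40 other measured microRNA pathway genes by role (y axis, 1 circle a gene), with V5 on the left and GFP on the right. Filled circles passed the limma threshold, grey bands span the 5th to 95th percentile of all genes, and dashed lines are their medians, -0.21 and -0.33. The highest circles are Fmr1, Lin28 and Lin28b with V5 and Fmr1 and Lin28 with GFP. Fmr1 was at 1.72 and 1.64 with V5 and 2.06 and 1.88 with GFP. Its IgG arrays lay far apart, at 0.795 and 0.411.

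For each of the 8 genes, the gene most like it over the 8 arrays was found by Pearson correlation among 10413 or 10414 genes with a RefSeq symbol whose group means spanned at least 0.5 log2 units. The arrays share slides and a group has only 2, so these are descriptions of pattern. Tarbp2 was most like 2900073H19Rik, which RefSeq names Urm1 (r = 0.9975), Dicer1 most like Huwe1 (r = 0.9972), and Xpo5 most like 4930507C10Rik, in RefSeq Hhipl2 (r = 0.9959). Huwe1 was at 2.96 and 3.39 with V5, 2.97 and 2.82 with GFP and 3.83 and 3.69 with IgG, against 7.74 and 7.04 in input, the pattern of Dicer1. Eif2c3 was most like 9230110C19Rik, in RefSeq Cfap300 (r = 0.9958), Eif2c4 most like Hiatl1, in RefSeq Mfsd14b (r = 0.993), Eif2c1 most like Zbtb9 (r = 0.9881), and Dgcr8 most like Ccnt1 (r = 0.9748). The lowest of these values was for Eif2c2, the gene that varied least, with Arhgap19 (r = 0.8218).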

How the data were processed

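RNA of 8 samples in 4 groups of 2 was measured on Agilent one-colour 4x44K arrays. Per the file headers, Agilent Feature Extraction 9.1.3.1 produced the deposited intensity columns, with background subtraction and detrending within each array; spots not above background hold surrogate values. The deposited table holds the authors' mean signal per group after median normalization in GeneSifter, per the file headers; its 3 group means were used as an alternative and 6 other columns were not used.

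From the deposited intensity, log2 values were taken and each array's 75th percentile subtracted; outlier spots were dropped and spots of a probe averaged. Kept were 25629 probes for 17593 genes; the brightest kept probe stood for a gene. Array gene names are old, and 22951 probes matched a RefSeq accession (GRCm38.p6). Group means were fitted over 8 arrays with limma 3.58.1 in R 4.3.3 (4 residual and 2.41 prior degrees of freedom). Two-sided p-values were adjusted by Benjamini-Hochberg across genes, or across kept probes, at 0.05. Where a group was not above background, a fold was taken against its lowest measurable signal, or against its own signal where that was higher. The first is a lower bound, written as "at least", and the second is not. The number of arrays limits the precision. The fit was tested on simulated data. Members, lists and tests were chosen with earlier results of these data known. Named genes are all members with all their probes, Dazl, Drosha, Prkra, GW182 and Piwi genes, the most similar gene for each member, and up to 4 listed pathway genes per comparison with the smallest p. Fmr1 was named after its values were seen. Alternatives were the replicate number as a block, other scalings, background, filters and probe rules, and fewer arrays.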

Additional observations from a re-analysis of the deposited data

How the results depend on the processing

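Of 48 gene values (8 genes in 6 comparisons), 26 passed the threshold. Of these, 20 kept their direction and 7 kept their call in all refitted alternatives. Most of the 20 could not be checked in the authors' deposited table. It holds no IgG mean. The brightest probes of Eif2c3, Eif2c4 and Dicer1 were not matched to it, because each shares its identifier with another probe of the gene. Among the brightest probes that could be checked, those of Eif2c1 and Tarbp2 over input with V5 and GFP, and of Dgcr8 with GFP, kept their direction. The second kept Eif2c1 probe was also positive there (0.98 with V5 and 1.34 with GFP). The Eif2c1 probe left out as dim was negative (-0.52 and -0.31). The Dgcr8 probes left out, above background on no array, were negative there with GFP. Xpo5 in GFP against input reversed, at 0.093 there and -0.22 in the main fit. Under normexp background the number of genes called fell to 0 for V5 against IgG (2 at an unadjusted p under 0.05) and 1 for GFP against IgG. It fell to 2 for V5 against input, 3 for GFP against input and 2 for IgG against input. The share of all genes that limma called was 0%, 18.3%, 29.9%, 32.4% and 35.6% in the same order. The cause was not tested. With spike-in scaling 7 were called for IgG against input and 1 for V5 against GFP, beside 75.8% and 12.2% of all genes. Among genes above background on all 8 arrays, 1 was called for V5 against GFP, beside 25.1% of such genes. For V5 against IgG, 2 were called without a filter, 2 with only the arrays of these groups, 2 to 4 with 1 array left out (2 without V5 replicate 1 and 2 without IgG replicate 2), and 0 without V5 replicate 1 and input replicate 2 together (2 at an unadjusted p under 0.05), a fit with fewer arrays.

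Signs turned with spike-in scaling, which moves every gene of an array alike. In V5 against IgG the values were then 0.097 for Eif2c1, 0.33 for Eif2c2, 0.090 for Xpo5 and 0.23 for Dicer1. In GFP against IgG they were 0.22 for Eif2c1, 0.096 for Xpo5 and 0.20 for Dicer1. In V5 against input Eif2c3 was -0.17 and Dgcr8 -0.18, in GFP against input Eif2c2 was -0.27, in IgG against input Eif2c4 was -0.23 and Dgcr8 and Xpo5 were -0.64 each, and in V5 against GFP Xpo5 was -0.006. With the mean of kept probes Eif2c4 was -0.087 in V5 against IgG, Eif2c1 0.02 and Eif2c2 -0.022 in GFP against IgG, Eif2c3 -0.32 in V5 against input and Eif2c2 -0.13 in GFP against input. With normexp Eif2c1 in V5 against GFP was 0.053. Without V5 replicate 1, alone or with input replicate 2, V5 against IgG gave 0.051 for Eif2c1, 0.009 for Eif2c2 and -0.033 for Dgcr8, and V5 against GFP gave 0.30 for Eif2c1. With 1 array left out Eif2c1 spanned -0.59 to 0.051 in V5 against IgG and -0.34 to 0.30 in V5 against GFP, Eif2c2 -0.082 to 0.018 and Dgcr8 -0.033 to 0.22 in V5 against IgG. In the authors' deposited table Eif2c1 was 0.013 in V5 against GFP, Eif2c2 was 0.19 and Xpo5 0.15 in V5 against input, and Xpo5 was 0.093 in GFP against input.

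Replicate numbers in the titles did not pair the arrays: deviations of same-numbered arrays correlated at -0.076 to 0.107 over genes, which are not independent. With the replicate block 4 genes were called for V5 against IgG, 6 for GFP against IgG and 5 for V5 against input. There were 7 for GFP against input, 4 for IgG against input and 0 for V5 against GFP (1 at an unadjusted p under 0.05). The share of all genes called was 54.4%, 72.8%, 72.3%, 74.7%, 72.5% and 0.0114% in the same order. The median absolute log2 difference between arrays of a group was 0.092 for V5, 0.085 for GFP, 0.159 for IgG and 0.077 for input, so the pooled SE may be too small beside IgG. Folds of dim probes are bounds or rest on signals not well above background.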
